A study of Mus musculus with 54 samples.

Results

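The expression of 10 genes of phospholipid and choline metabolism was followed in mouse liver: Lpin1, Lpin2, Plpp3, Lpcat3, Gpcpd1, Chka, Pcyt1a, Pcyt2, Pemt and Chdh. They were chosen by gene symbol and make up 10 of the 20162 entries of the deposited expression table. All 10 were among the 11431 entries whose mean value was at least 1 and which were tested. The livers came from male wild-type C57BL/6J mice that were fed a high-fat diet from 8 weeks of age and were given the plasticizer diisononyl phthalate (DINP) every day for 20 weeks. DINP was eaten in a gelatin pellet. The low dose was 1.5 mg/kg bw/d (13 mice), the middle dose 15 mg/kg bw/d (13 mice) and the high dose 150 mg/kg bw/d (14 mice), and 14 control mice received a placebo pellet and the same diet. Every group was thus on the high-fat diet, and no group on another diet was analysed here. RNA was taken from the medial lobe of 1 liver per mouse, without sorting of cells, and was sequenced from the 3′ ends of its transcripts.

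Phosphatidylcholine (PC) and phosphatidylethanolamine (PE) are the main phospholipids of liver membranes and of the surface of secreted lipoproteins, and PC is also exported into bile. The liver makes PC from choline in the Kennedy pathway, in which choline is phosphorylated (Chka), activated with CTP (Pcyt1a) and joined to diacylglycerol, and it also makes PC by methylating PE (Pemt). Pcyt2 takes the activation step for ethanolamine, on the way to PE. The lipins (Lpin1, Lpin2) and the membrane phosphatase Plpp3 remove phosphate from phosphatidate or related lipids, and the lipins so provide the diacylglycerol for both PC and triglyceride. Lpcat3 places polyunsaturated fatty acids on lysophospholipids, Gpcpd1 cleaves glycerophosphocholine, a breakdown product of PC, and Chdh oxidises choline towards betaine, a methyl donor.

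The deposited values were read as TPM (a share of all transcripts that takes transcript length into account), rounded and scaled between mice by the authors. The columns summed to between 747258 and 1076439. The number of reads behind them is unknown, so that no counting error can be given and SDs are over mice. The median correlation of a mouse with the others of its group was 0.908 to 0.967. The lowest values belonged to replicates 7, 6 and 8 at the middle dose (0.908, 0.932 and 0.932) and to replicate 8 of the control group (0.936, column sum 747258). Replicate 5 at the middle dose came next (0.939), so that no clear gap set these 4 mice apart. Calls that were lost without these 4 mice are named below, with the adjusted p without them. The hepatocyte markers Alb, Apoa1, Ttr, Serpina1a, Tat and Cps1 together reached 22920 to 45400 in every mouse. The markers of other liver cells were present at far lower sums, and 4 of 5 adipocyte markers had a median of 0 in every group. In such bulk tissue, fewer cells of a type and less RNA per cell cannot be told apart.

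Genes were compared with limma on log2(value + 1), and adjusted p-values are by the Benjamini-Hochberg method over all 11431 entries of a comparison. A gene is said to have risen or fallen only with an adjusted p under 0.05, and is called a DEG if its log2FC was also beyond 0.5. Levels are given ± SD and log2FCs ± SE. All comparisons with control share the same 14 control mice, and a log2FC on this scale understates the change of genes with low values.

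In the control livers, Pemt had by far the highest level of the 10 genes, at 936 ± 117 (SD, n = 14), followed by Plpp3 at 110.2 ± 19.1, Pcyt2 at 60.6 ± 12.0, Lpin2 at 44.0 ± 8.80 and Lpcat3 at 36.7 ± 3.80. The other 5 lay close together, with Lpin1 at 18.1 ± 5.93, Chka at 17.9 ± 12.4, Gpcpd1 at 17.5 ± 7.28, Pcyt1a at 16.7 ± 1.86 and Chdh at 16.1 ± 1.43, so that neighbours among these 5 did not differ beyond their spread. This order is on the authors' per-length scale, whereas reads from 3′ ends do not grow in number with transcript length. Variation between control mice was smallest for Chdh (coefficient of variation 8.92%) and largest for Chka (69.1%).

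**Figure D1:**
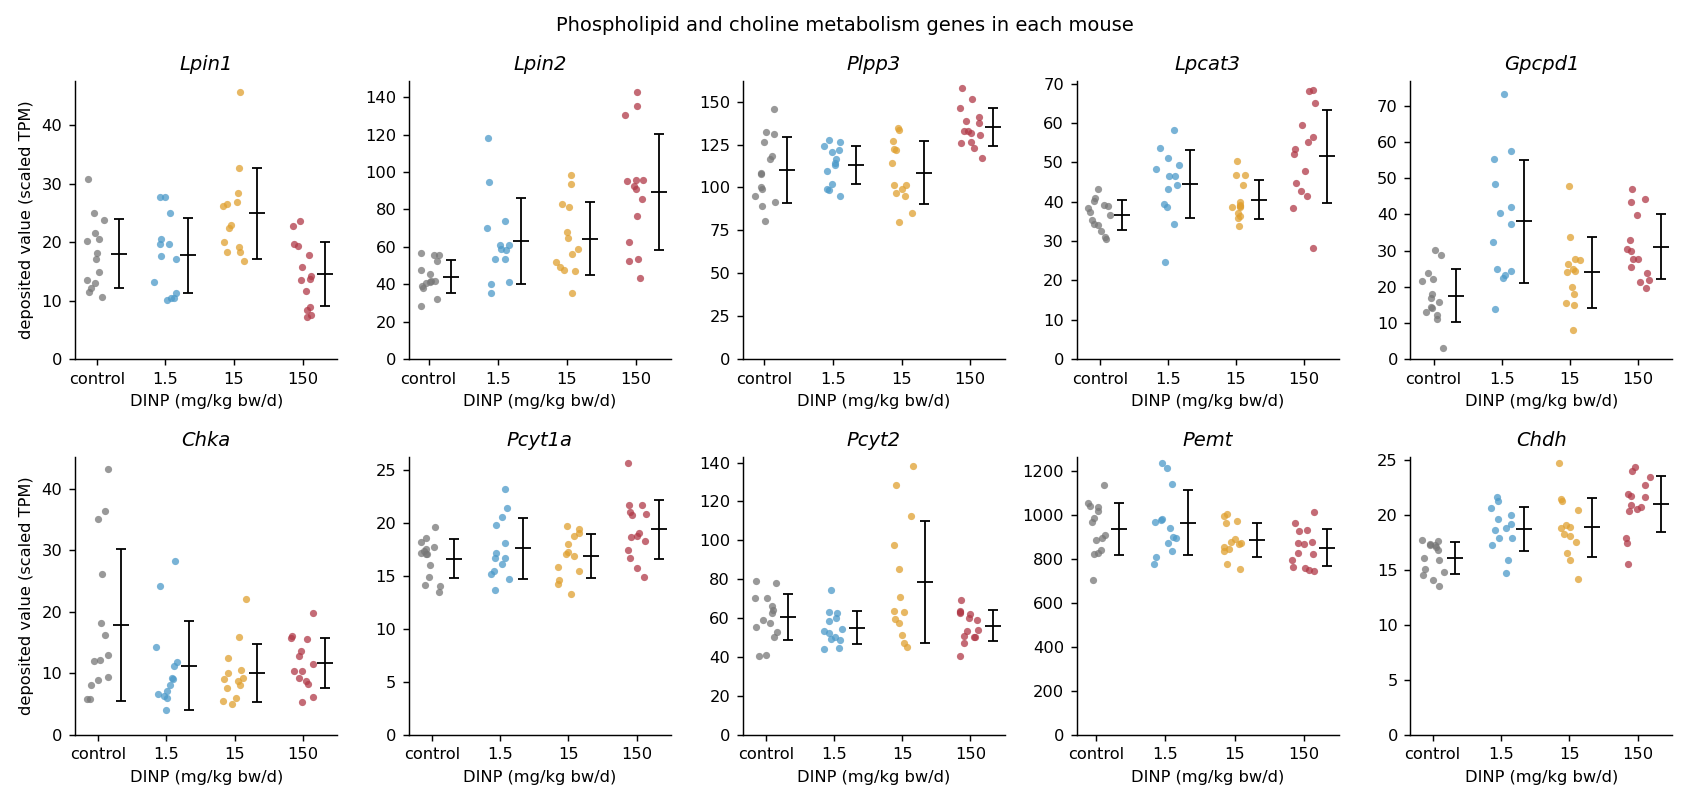
Deposited value (scaled TPM, axes from 0) of each of the 10 genes in every mouse, by DINP dose (mg/kg bw/d); points are mice and the bars at the side give mean ± SD of 14, 13, 13 and 14 mice. Lpin2 and Chdh at the high dose lie mostly above the control mice, and Chka in the control group is spread from 5.76 to 43.3.

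Against control, 1 of the 10 genes rose at the low dose (Gpcpd1), 2 rose at the middle dose (Lpin2 and Chdh) and 5 rose at the high dose (Lpin2, Chdh, Lpcat3, Plpp3 and Gpcpd1), and these 8 calls were all upward. Of all tested entries, 1.20%, 14.2% and 2.17% were called in order of dose, and 0.674%, 7.57% and 1.49% were called higher. The middle dose thus had the most calls over all entries and the high dose the most among the 10 genes. DEGs by the added log2FC threshold were Gpcpd1 at the low dose, Lpin2 at the middle dose and both of them at the high dose, against 0.367%, 3.72% and 0.840% of all entries. The median log2FC of the 10 genes was 0.0596, 0.175 and 0.256 in order of dose, beside 0.00279, -0.00101 and -0.00809 for all tested entries. Without the 4 mice least like their groups all 8 calls against control were made again, Lpin2 and Chdh at the middle dose with log2FCs of 0.63 (limma, adjusted p = 0.0177) and 0.25 (adjusted p = 0.0192). Of all tested entries, 1.43%, 8.00% and 2.67% were then called in order of dose. Because the genes were picked with earlier results of these data known, these counts describe them and carry no test.

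**Figure D2:**
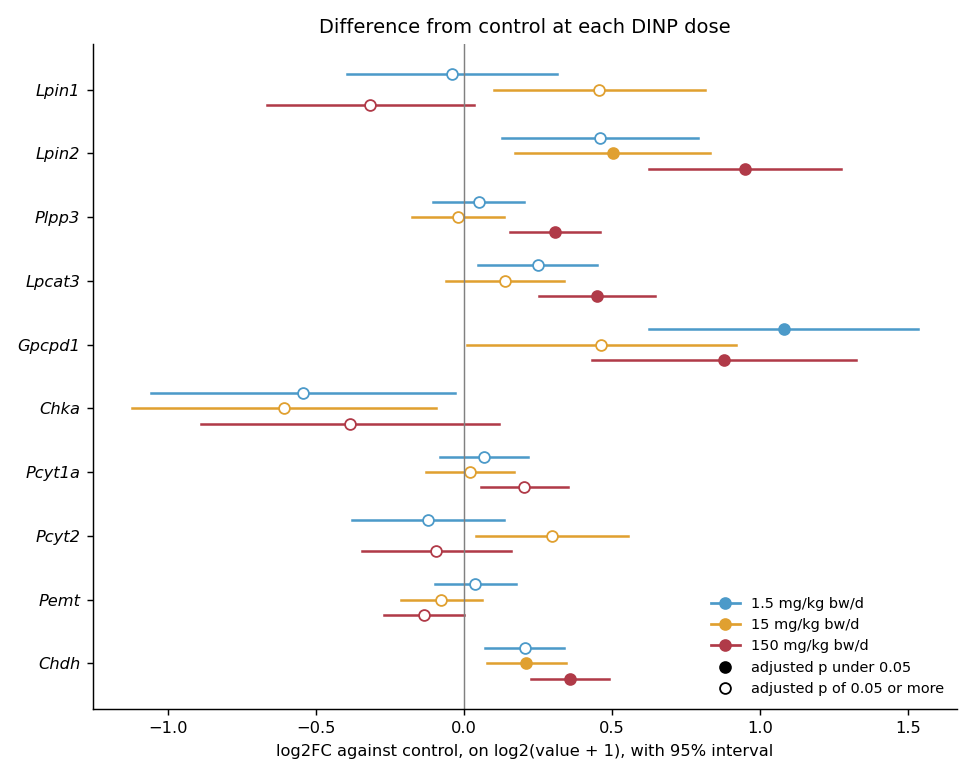
log2FC against control of the 10 genes (horizontal axis, on log2(value + 1)) at each DINP dose, with 95% intervals from limma; filled points have an adjusted p under 0.05. Filled points are Gpcpd1 at the low dose, Lpin2 and Chdh at the middle dose, and these 3 with Lpcat3 and Plpp3 at the high dose, all to the right of 0.

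The lipins differed in their order across doses. Lpin2 had its lowest, median and highest values at 28.1, 41.5 and 56.7 in the control group, 35.4, 58.7 and 118 at the low dose, 35.4, 58.7 and 98.2 at the middle dose, and 43.3, 91.6 and 143 at the high dose. All 14 mice of the high dose were above the control median, and 11 of them were above the highest control mouse, although the groups still overlapped. Mean values were 44.0 ± 8.80 in control mice and 89.4 ± 31.0 at the high dose, a log2FC of 0.95 ± 0.16 (SE; limma, adjusted p = 0.000132). At the middle dose the mean was 64.2 ± 19.5 (log2FC 0.50 ± 0.16, adjusted p = 0.0309). The mean at the low dose was much the same, 63.0 ± 22.8, but did not pass the test (log2FC 0.46 ± 0.16, adjusted p = 0.181). The low-dose and middle-dose groups differed by -0.04 on the log2 scale (95% interval -0.38 to 0.29). The call at the middle dose was lost without control replicate 7 (adjusted p = 0.0583), replicate 10 (0.056) or replicate 13 (0.0515) of that dose, without the filter on low values (0.0521) and in a Wilcoxon rank-sum test (0.0565). The annotated span of the long noncoding gene Gm26561 lies over Lpin2 on the same strand, its 3′ end included. Gm26561 has no entry under that symbol in the deposited values. Overlap of the exons was not checked, so that a share of Gm26561 reads in the Lpin2 values is unknown.

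Lpin1, in contrast, passed no test against control. Its lowest, median and highest values were 10.6, 17.6 and 30.8 in the control group, 10.1, 17.7 and 27.8 at the low dose, 16.8, 22.9 and 45.7 at the middle dose, and 7.27, 14.0 and 23.6 at the high dose. The middle dose thus had the high mice and the high dose the low ones, with overlap throughout. Its log2FC was 0.46 ± 0.18 at the middle dose (limma, adjusted p = 0.0742) and -0.32 ± 0.17 at the high dose (adjusted p = 0.423). Without control replicate 10 the value at the middle dose passed (log2FC 0.52, adjusted p = 0.04). Compared directly, Lpin1 exceeded its high-dose level at the middle dose by 0.77 ± 0.18 on the log2 scale (adjusted p = 0.00119), where 20.0% of all entries were called. For Lpin2 the same comparison went the other way (middle minus high, -0.45 ± 0.16, adjusted p = 0.0453). The Lpin2 call was lost without the 4 mice least like their groups (adjusted p = 0.194), without the filter on low values (0.0755), with the pair of groups fitted alone (0.085), with array quality weights (0.185) and in a Wilcoxon rank-sum test (0.146). It was also lost without any 1 of replicates 3, 4, 5, 6, 7, 8, 9 and 11 of the middle dose or 5, 6, 7, 8, 9, 10, 11, 12 and 14 of the high dose (0.052 to 0.101).

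Because these paralogs differed in this way, the sequence just before their start sites is shown for both, from the RefSeq windows on GRCm38.p6. The Lpin1 stretch is chr12:16610967-16611066 on the minus strand and the Lpin2 stretch is chr17:71183432-71183531 on the plus strand. The former lies outside annotated genes, and the latter inside the annotated spans of 2 genes, Lpin2 among them, but in no exon. Each runs 5′ to 3′ and holds the 100 bases before a RefSeq start, with motif letters in capitals.
Lpin1: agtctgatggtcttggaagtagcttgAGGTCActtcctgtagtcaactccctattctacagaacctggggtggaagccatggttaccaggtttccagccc
Lpin2: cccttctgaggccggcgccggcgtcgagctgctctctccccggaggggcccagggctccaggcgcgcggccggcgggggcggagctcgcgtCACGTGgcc
Motifs were searched on both strands in windows from 250 bases before to 50 bases after each start, which matched 8 of the 10 genes in 15 windows. AGGTCA, the nuclear receptor half-site, began at position -74 of Lpin1 and was also held by 1 window of Pcyt1a, and 16.3% of all 32851 windows hold it. CACGTG, the E-box, began at position -9 of the first of 3 Lpin2 windows, and 7.15% of all windows hold it. Neither the direct repeat of AGGTCA with any 1 base between the copies (0.0396% of all windows) nor TTATGTAA, the D-box (0.938%), occurred in these 15 windows. Gpcpd1 and Pcyt2 had no window and were not searched. Matches of the repeat are also matches of AGGTCA. Such matches describe letters only.

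Plpp3, which dephosphorylates bioactive lipid phosphates such as lysophosphatidate at the cell surface, rose at the high dose. Its lowest, median and highest values were 80.4, 108 and 146 in the control group, 95.2, 114 and 128 at the low dose, 79.9, 101 and 135 at the middle dose, and 117, 133 and 158 at the high dose. All 14 mice of the high dose exceeded the control median but only 3 exceeded the highest control mouse. The log2FC was 0.31 ± 0.08 at the high dose (limma, adjusted p = 0.0158), 0.05 ± 0.08 at the low dose (adjusted p = 0.857) and -0.02 ± 0.08 at the middle dose (adjusted p = 0.908). The high dose also exceeded the middle dose, the difference of middle minus high being -0.33 ± 0.08 (adjusted p = 0.00157). The difference of low minus high was -0.26 ± 0.08 (adjusted p = 0.0383), the only call of the 10 genes in that comparison, in which 4.61% of all entries were called. It was lost without the filter on low values (adjusted p = 0.0599), after quantile normalization (0.0761), and without any 1 of replicates 3, 4, 5, 8 and 9 of the low dose or 1, 10, 12, 13 and 14 of the high dose (0.052 to 0.0728).

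Lpcat3, the acyltransferase for polyunsaturated PC, rose at the high dose as well. The control mice lay close together, at 30.6, 37.1 and 43.2 (lowest, median and highest). The values were 24.8, 46.5 and 58.2 at the low dose, 33.8, 39.0 and 50.4 at the middle dose, and 28.2, 52.7 and 68.5 at the high dose. At the high dose 10 of 14 mice were above every control mouse and 1 was below every control mouse, so that the spread widened along with the mean. Means were 36.7 ± 3.80 in control mice and 51.6 ± 11.8 at the high dose (log2FC 0.45 ± 0.10, limma, adjusted p = 0.00458). At the low dose 8 of 13 mice exceeded the control range and the log2FC was 0.25 ± 0.10 (adjusted p = 0.258), and at the middle dose it was 0.14 ± 0.10 (adjusted p = 0.384). The high dose also exceeded the middle dose (middle minus high, -0.31 ± 0.10, adjusted p = 0.0203, and 0.0524 in a Wilcoxon rank-sum test).

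Gpcpd1, the glycerophosphocholine phosphodiesterase, showed the largest log2FC of the 10 genes at the low dose. Its lowest, median and highest values were 3.12, 16.4 and 30.3 in the control group, 13.7, 37.4 and 73.4 at the low dose, 7.98, 24.3 and 48.0 at the middle dose, and 19.8, 28.9 and 47.0 at the high dose. At the low dose 8 of 13 mice were above the highest control mouse, and at the high dose all 14 were above the control median. The log2FC was 1.08 ± 0.23 at the low dose (limma, adjusted p = 0.00649), 0.46 ± 0.23 at the middle dose (adjusted p = 0.173) and 0.88 ± 0.22 at the high dose (adjusted p = 0.0192). The call at the low dose was held in all 27 fits without 1 mouse and missed the threshold in a Wilcoxon rank-sum test (adjusted p = 0.0502). Between the low and the high dose the difference was 0.20 (95% interval -0.25 to 0.66). Between the low and the middle dose, where 21.4% of all entries were called, it was 0.62 ± 0.23 (adjusted p = 0.0475). That call was lost without the 4 mice least like their groups (adjusted p = 0.191), with a pseudocount of 0.1 (0.0543) and without the filter on low values (0.0796). It was also lost with the pair of groups fitted alone (0.0715), with array quality weights (0.166) and in a Wilcoxon rank-sum test (0.175). Leaving out any 1 of replicates 2, 5, 6, 8, 9, 11, 12 and 13 of the low dose or 2, 4, 5, 6, 7, 8, 9 and 11 of the middle dose ended it as well (0.052 to 0.105).

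Chka, the choline kinase at the head of the Kennedy pathway, varied most between control mice. Its lowest, median and highest values were 5.76, 12.5 and 43.3 in the control group, 4.03, 9.10 and 28.3 at the low dose, 5.09, 9.06 and 22.2 at the middle dose, and 5.31, 11.0 and 19.8 at the high dose. No dose group had a mouse above the highest control mouse, while the lower ends of all groups were alike. The log2FC was -0.54 ± 0.26 (limma, adjusted p = 0.366), -0.61 ± 0.26 (adjusted p = 0.105) and -0.38 ± 0.25 (adjusted p = 0.519) in order of dose, none of which passed.

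Pcyt1a, the rate-setting enzyme of the PC branch, had means of 16.7 ± 1.86 in control mice and 17.6 ± 2.88, 16.9 ± 2.09 and 19.4 ± 2.81 in order of dose. The value at the high dose had the largest log2FC, 0.20 ± 0.07 (limma, adjusted p = 0.139), with 6 of 14 mice above the highest control mouse. Pemt, the PE methyltransferase, had means of 936 ± 117, 964 ± 148, 885 ± 78.7 and 850.2 ± 84.6, and 12 of 14 mice at the high dose were below the control median. Its log2FC of -0.13 ± 0.07 at that dose did not pass (adjusted p = 0.358). After quantile normalization it did, at -0.21 (adjusted p = 0.0174), as did the value at the middle dose, at -0.17 (adjusted p = 0.0211) in place of -0.08 ± 0.07 (adjusted p = 0.507), so that the call for Pemt depended on the scaling between mice.

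Pcyt2, the ethanolamine counterpart of Pcyt1a, had means of 60.6 ± 12.0 in control mice, 55.2 ± 8.49 at the low dose, 78.4 ± 31.3 at the middle dose and 56.2 ± 7.91 at the high dose. The wide spread at the middle dose came with a median of 63.8 and a highest value of 138, and 5 of 13 mice were above the highest control mouse at 79.0. The log2FC against control was 0.30 ± 0.13 (limma, adjusted p = 0.113), and among the fits without 1 mouse it passed only without replicate 3 of that dose (0.36, adjusted p = 0.0473). The middle dose exceeded the low dose (low minus middle, -0.42 ± 0.13, adjusted p = 0.0161) and the high dose (middle minus high, 0.39 ± 0.13, adjusted p = 0.023). Replicates 6, 8 and 7 of that group, the mice least like their group over all genes, held 138, 128 and 113. Without these and control replicate 8 the differences were -0.19 (adjusted p = 0.255) and 0.16 (adjusted p = 0.344), and the log2FC against control was 0.02 (adjusted p = 0.928). The higher Pcyt2 at the middle dose therefore rested on those mice, and leaving out any 1 of the 3 already ended the call against the high dose (adjusted p from 0.0518 to 0.0627). With the pair of groups fitted alone, both calls between doses were lost as well (limma, adjusted p = 0.0638 against the low dose and 0.0743 against the high dose). Both were also lost with array quality weights (0.142 and 0.212) and in a Wilcoxon rank-sum test (0.152 and 0.18).

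Chdh, the mitochondrial choline dehydrogenase, rose at both higher doses. Its lowest, median and highest values were 13.5, 16.4 and 17.8 in the control group, 14.7, 18.8 and 21.6 at the low dose, 14.2, 18.8 and 24.7 at the middle dose, and 15.6, 21.3 and 24.4 at the high dose. In the 3 dose groups 10 of 13, 9 of 13 and 12 of 14 mice lay above the highest control mouse, so that only a few dosed mice lay within the control range. The lowest mouse of each dose group was still below the control median. The log2FC was 0.36 ± 0.07 at the high dose (limma, adjusted p = 0.000382) and 0.21 ± 0.07 at the middle dose (adjusted p = 0.0238). At the low dose nearly the same difference, 0.21 ± 0.07, did not pass (adjusted p = 0.125). The low-dose and middle-dose groups differed by -0.01 (95% interval -0.14 to 0.13), and the difference of middle minus high was -0.15 (adjusted p = 0.109). The call at the middle dose was lost without replicate 1 of that dose (adjusted p = 0.0502) and with the pair of groups fitted alone (0.0512). The 5 calls at the high dose, by contrast, held in all 28 fits that left out 1 mouse.

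The remaining direct comparisons between doses added a further call, Lpin1 at the low dose being under its level at the middle dose (low minus middle, -0.50 ± 0.18, limma, adjusted p = 0.041). It was lost without the 4 mice least like their groups (adjusted p = 0.072), without the filter on low values (0.0694), with array quality weights (0.0669) and in a Wilcoxon rank-sum test (0.139). Leaving out any 1 of replicates 1, 7, 8, 11 and 12 of the low dose or 1, 2, 3, 6, 8 and 9 of the middle dose ended it as well (0.0539 to 0.0794). In all, 3 of the 10 genes were called between the low and the middle dose (Gpcpd1, Lpin1 and Pcyt2), beside 21.4% of all entries, so that the share of the 10 was near the background. Between the low and the high dose 1 was called (Plpp3), beside 4.61%, and between the middle and the high dose 5 (Lpin1, Lpin2, Plpp3, Lpcat3 and Pcyt2), beside 20.0%. Without the 4 mice these counts of 3 and 5 became 0 and 3. The share of all entries called between doses was not counted without these mice, so that the lower counts have no background beside them. Against control at the middle dose, that share was 14.2% with the 4 mice and 8.00% without them.

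Beyond the 10 genes, a list of 103 genes of phospholipid and choline metabolism was followed, of which 92 were tested, the 10 included. Of these 92, 2 rose and 2 fell at the low dose, 7 rose and 5 fell at the middle dose, and 10 were called at the high dose, all upward. Without the 10 genes, 82 were tested, and 3 (3.66%), 10 (12.2%) and 5 (6.1%) of them were called in order of dose, beside the 1.20%, 14.2% and 2.17% of all entries. Their median log2FC was -0.01, 0.01 and 0.07. After quantile normalization 2 genes of the 92 fell at the high dose. Without the 4 mice least like their groups, 6 rose and 4 fell at the middle dose and 11 rose at the high dose. In that fit 8.00% of all entries were called at the middle dose (4.36% called higher) and 2.67% at the high dose (1.66% called higher).

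At the high dose 2.17% of all entries were called and 1.49% were called higher. The risers outside the 10 genes were Chkb and Chpt1 (PC synthesis), Lclat1 and Agpat3 (acyl transfer) and Mat2a (methyl supply). Chkb, the second choline kinase, went from 101 ± 19.9 in control mice to 129 ± 13.4 (log2FC 0.36 ± 0.09, limma, adjusted p = 0.0188). Chpt1, the cholinephosphotransferase that completes PC, went from 68.7 ± 10.2 to 86.4 ± 6.04 (0.34 ± 0.09, adjusted p = 0.0335). With both, 2 of the 5 tested genes of the PC branch rose at this dose, and Chka was not one of them. Among the 13 tested acyltransferases, Lclat1, which remodels cardiolipin and phosphatidylinositol (log2FC 0.52, adjusted p = 0.0276), and Agpat3, a lysophosphatidate acyltransferase (0.44, adjusted p = 0.0283), rose beside Lpcat3. Mat2a, which makes S-adenosylmethionine, was the single riser of 9 genes of PE methylation and the methyl cycle (0.33, adjusted p = 0.0312). At this dose limma called 0 of 17 phospholipases and lysophospholipases, 0 of 10 genes of the other phospholipid classes, 0 of 8 genes of phospholipid transfer and export and 0 of 6 genes of the PE branch, and 4, 2, 1 and 1 of these had an unadjusted p under 0.05. Chkb was called in all 28 fits without 1 mouse. Lclat1 was lost without replicate 5 of the high dose (adjusted p = 0.0561), Agpat3 without control replicate 1 (0.0588), Mat2a without control replicate 2 or 6 or high-dose replicate 2, 5, 6 or 7 (at most 0.0639), and Chpt1 without control replicate 7, 8, 9 or 10 or high-dose replicate 9 or 11 (at most 0.0741).

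Calls at the middle dose, where 14.2% of all entries were called and 7.57% were called higher, went both ways. Lypla2, a lysophospholipase and thioesterase, fell from 67.3 ± 9.38 to 44.7 ± 13.4 (log2FC -0.63 ± 0.10, limma, adjusted p = 3.39e-05). In choline oxidation and betaine use, 3 of 13 genes rose, Chdh, Dmgdh, the dimethylglycine dehydrogenase (0.32, adjusted p = 0.022), and Pipox, the sarcosine and pipecolate oxidase (0.50, adjusted p = 0.00145), and the choline transporter Flvcr2 fell (-0.53, adjusted p = 0.0348). Ahcy, which clears S-adenosylhomocysteine, also rose (0.44, adjusted p = 0.0183), as did Tmem30a, a subunit of phospholipid flippases (0.29, adjusted p = 0.0059), and the phospholipase Pnpla8 (0.22, adjusted p = 0.0357). Selenoi, the ethanolaminephosphotransferase, fell (-0.34, adjusted p = 0.0022). Named after their values were seen, Abcb4, the canalicular PC exporter, went from 396 ± 121 in control mice to 292 ± 89.2 (-0.43, adjusted p = 0.0415), and Pla2g12b from 56.4 ± 7.72 to 49.4 ± 5.59 (-0.19, adjusted p = 0.0464). At the low dose Etnk1, an ethanolamine kinase, fell from 13.2 ± 1.28 to 10.0 ± 1.17 (-0.37 ± 0.07, adjusted p = 0.00353), Flvcr2 fell at values near the filter (from 1.62 ± 0.767 to 0.589 ± 0.487, adjusted p = 0.0228), and Phykpl, a lyase of phosphohydroxylysine, rose (0.37, adjusted p = 0.0431). Without the 4 mice least like their groups, 4 of the middle-dose calls named here were lost, Tmem30a (adjusted p = 0.0724), Flvcr2 (0.157), Pnpla8 (0.351) and Abcb4 (0.323). In that fit 8.00% of all entries were called at the middle dose. Lypla2, Pipox, Selenoi, Tmem30a and Ahcy at the middle dose and Etnk1 and Flvcr2 at the low dose were called in all 27 fits without 1 mouse. Dmgdh was lost without middle-dose replicate 8 (0.0561), and Flvcr2 at the middle dose without control replicate 1, 7, 8 or 12 or middle-dose replicate 2, 8 or 10 (at most 0.0814). Many single mice decided the other calls, with 11 of 27 fits losing Pnpla8 (at most 0.0928), 14 Abcb4 (at most 0.102), 18 Pla2g12b (at most 0.0933) and 18 Phykpl at the low dose (at most 0.0821).

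**Figure D3:**
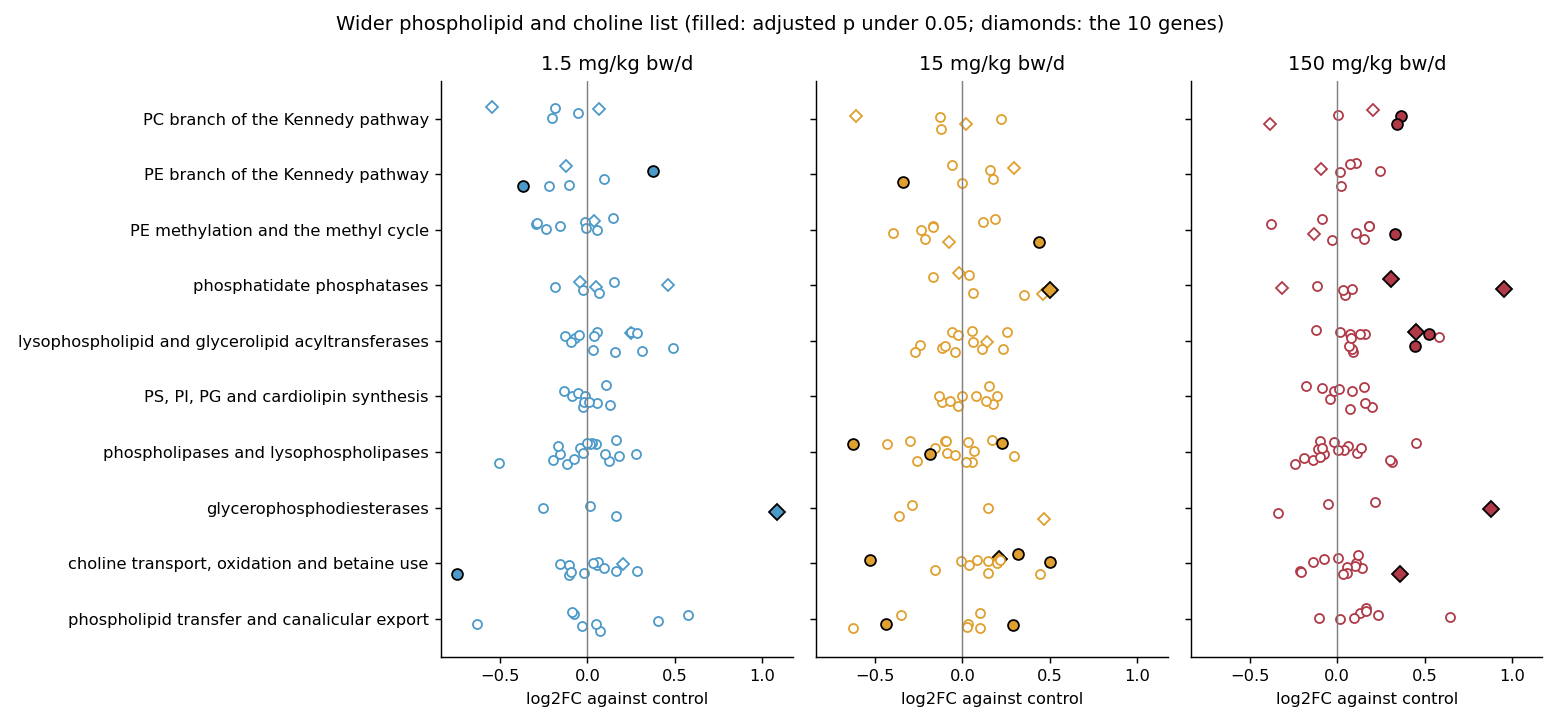
log2FC against control (horizontal axis) of the 92 tested genes of the wider list, by sublist and DINP dose; filled symbols have an adjusted p under 0.05 and diamonds are the 10 genes followed here. At the high dose all 10 filled symbols lie to the right of 0, and at the middle dose 7 lie to the right and 5 to the left.

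The genes also varied together from mouse to mouse within a group. Over the 54 mice, with group means removed, 13 of the 45 pairs had an adjusted p under 0.05 (permutation of mice within groups, 100000 resamples, Benjamini-Hochberg over the pairs), 9 positive and 4 negative. Since mice were permuted within groups that differed in spread, the order of p does not follow that of r alone. All 4 negative relations involved Chka, with Gpcpd1, Plpp3, Pcyt1a and Lpin1. Lpcat3 and Lpin1 had the highest r, 0.58 (rho 0.61, permutation p = 2e-05 for both, adjusted p = 0.0009 for both), and 0.54 without the 2 mice farthest from the median of Lpcat3. Within the groups this r was 0.63, 0.64 and 0.75 in the control, low-dose and high-dose mice but -0.02 in the middle-dose mice. Lpcat3 and Lpin2 had an r of 0.55 (rho 0.49, permutation p = 0.00014 and 0.00059, adjusted p = 0.0021 and 0.00558), 0.50 without 2 mice, from 0.29 in the middle-dose to 0.88 in the high-dose mice. Gpcpd1 and Chka had an r of -0.54 (rho -0.50, permutation p = 0.00012 and 0.00029, adjusted p = 0.0021 and 0.00435), -0.43 without 2 mice, and negative in all 4 groups (-0.72, -0.34, -0.68 and -0.19 in order of dose).

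**Figure D4:**
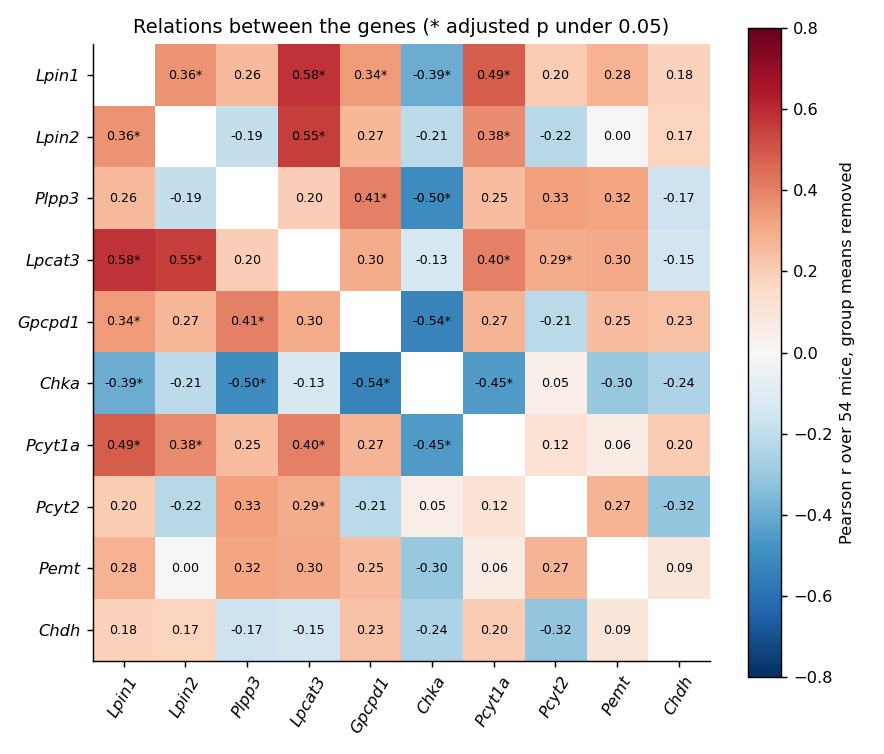
Pearson r of each pair of the 10 genes over 54 mice, after the group means of log2(value + 1) were removed; colour and number give r and stars an adjusted p under 0.05 (permutation within groups, 45 pairs). The row of Chka holds all 4 starred negative values, and Lpcat3 with Lpin1 has the highest value, 0.58.

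Chka tracked genes whose liver level follows the time of day. Of 14 tested genes of the circadian clock and its output, 11 were related to Chka at an adjusted p under 0.05, 9 negatively and 2 positively (permutation within groups, Benjamini-Hochberg over 140 relations of the 10 genes). The closest was Dbp, an output transcription factor of the clock, with an r of -0.87 (rho -0.84, permutation p = 1e-05 for both, the smallest these resamples can give, adjusted p = 0.00028 and 0.000467) and -0.84 without 2 mice. Within the groups this r was -0.96, -0.91, -0.56 and -0.78 in order of dose. Lpin1 was related to 8 and Gpcpd1 to 7 of the clock genes, the latter most closely to Tef (r = 0.57, rho = 0.56, permutation p = 2e-05 for both, adjusted p = 0.0004 and 0.000467, 0.55 without 2 mice). Pcyt2 was related to none of the 14 by r at that threshold, and Lpcat3 and Chdh to 1 each.

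At the middle dose 4 of these 14 clock genes rose against control, Nr1d2, Per3, Usp2 and Dbp, where 14.2% of all entries were called and 7.57% were called higher. Without the 4 mice least like their groups Dbp did not pass (log2FC 0.82, limma, adjusted p = 0.0872), and 8.00% of all entries were called. At the low and the high dose limma called 0 of 14, and 1 of 14 at each of these doses had an unadjusted p under 0.05. Dbp had means of 54.2 ± 33.5 in control mice, 70.9 ± 35.4, 90.4 ± 20.0 and 63.6 ± 24.5 in order of dose, with log2FCs of 0.48 (limma, adjusted p = 0.504), 1.00 (adjusted p = 0.0125) and 0.43 (adjusted p = 0.52). The middle-dose mice had the highest mean Dbp, the highest mean Lpin1 (25.0) and the lowest mean Chka (10.0). Mean Chka was 17.9 in control mice, 11.3 at the low dose and 11.7 at the high dose. Gpcpd1 had an r of 0.50 with Dbp, and its means were 17.5 in control mice and 38.1, 24.0 and 31.1 in order of dose. The labels give no hour of death, and the part of time of day in the values of Chka, Lpin1 and Gpcpd1 was not tested.

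**Figure D5:**
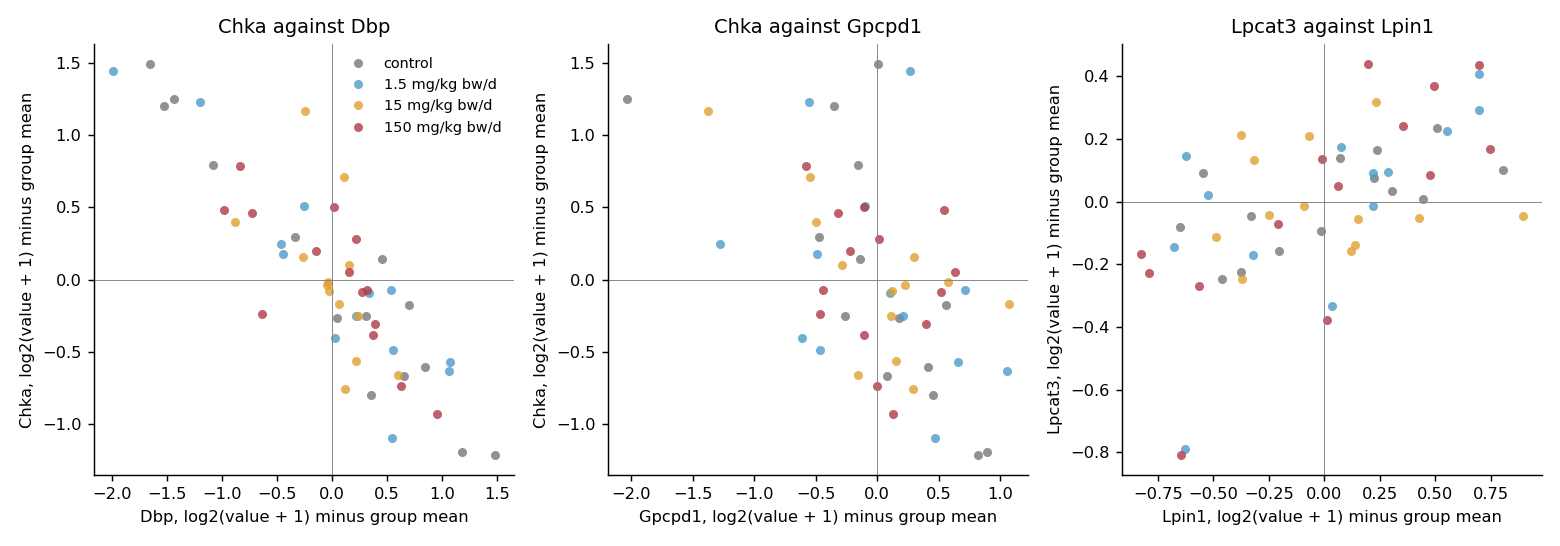
Deviations from the group means on log2(value + 1) for Chka against Dbp, Chka against Gpcpd1 and Lpcat3 against Lpin1; each point is 1 of 54 mice, coloured by DINP dose. Mice with high Dbp have low Chka (r = -0.87), as have, less closely, mice with high Gpcpd1 (r = -0.54), and Lpcat3 is high where Lpin1 is high (r = 0.58) except among the middle-dose mice.

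For each gene called at any dose, the 3 tested entries with the highest r over the 54 mice, group means removed, describe its company. They were picked for their r and have no test. Lpcat3 ran with Cyb5r3 (r = 0.66), the reductase that feeds electrons to cytochrome b5, with the kinase gene Mknk2 (0.66) and with Fads2 (0.65), the delta-6 desaturase. Gpcpd1 ran with Npc1 (0.65), which exports cholesterol from lysosomes, Upp2 (0.64), a uridine phosphorylase, and Clmn (0.63). Lpin2 ran with Mindy2 (0.69), Mycbp2 (0.67) and Gm7049 (0.64), Plpp3 with Cant1 (0.59), Znhit2 (0.57) and Ube2g1 (0.56), and Chdh with Mia2 (0.64), Rpl23a (0.59) and Acbd5 (0.58). Lpin1, added after its values were seen, ran with 3 genes of fatty acid synthesis, Acly (0.74), Thrsp (0.70) and Elovl6 (0.70).

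Of 35 tested markers of hepatocytes, macrophages, endothelial cells, stellate cells, cholangiocytes, adipocytes, lymphocytes and blood, limma called 0 at the low dose and 0 at the high dose, where 8 and 1 had an unadjusted p under 0.05. At the middle dose the endothelial marker Pecam1 (log2FC -0.52, limma, adjusted p = 0.000867) and the macrophage marker Csf1r (-0.60, adjusted p = 0.0114) fell and the hepatocyte marker Ttr (0.42, adjusted p = 0.0231) rose. These 3 were 8.57% of the 35 markers, beside 14.2% of all entries at that dose. A log2FC above 0 was found for 0 of 6 endothelial, 3 of 8 macrophage and 4 of 6 hepatocyte markers. Without the 4 mice least like their groups Pecam1 was still called (-0.38, adjusted p = 0.0214), whereas Csf1r (-0.51, adjusted p = 0.0628) and Ttr (0.28, adjusted p = 0.21) were not. Ttr was also lost without replicate 6 or 8 of the middle dose (at most 0.0509). The 6 endothelial markers summed to 71.7 to 95.8 in the control group, 76.3 to 100.1 at the low dose, 57.2 to 96.2 at the middle dose and 71.1 to 100.4 at the high dose. The 8 Kupffer cell and macrophage markers summed to 62.2 to 207, 56.6 to 125, 57.6 to 124 and 52.4 to 119 in the same order. No gene of either list had a median of 0 in a group. Their part in the values of the 10 genes was not tested.

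In the GENCODE M21 annotation of GRCm38 the genes are protein coding and lie on 9 chromosomes, Pcyt2 and Pemt both on chromosome 11. Lpin1 spans chr12:16535669-16610966 (minus strand), Lpin2 chr17:71182560-71249817 (plus), Plpp3 chr4:105157347-105232764 (plus), Lpcat3 chr6:124663027-124704418 (plus) and Gpcpd1 chr2:132529082-132587729 (minus). Chka spans chr19:3851773-3894369 (plus), Pcyt1a chr16:32430921-32475070 (plus), Pcyt2 chr11:120610087-120617936 (minus), Pemt chr11:59970614-60046489 (minus) and Chdh chr14:30009023-30040527 (plus). Apart from Lpin2, no gene of the same strand overlaps any of them.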

How the data were processed

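The authors sequenced total RNA of the medial liver lobe from QuantSeq 3′ mRNA libraries. Reads were mapped to GRCm38 within the nf-core/rnaseq workflow, which the submitters' notes list with STAR, Salmon and RSEM, and the study's own gene tests were run in DESeq2. The annotation release is not given in the sources used here. The deposited table holds a signal that the authors had derived from TPM. Each column held only multiples of a single step, from 0.764 to 1.11 in size, and in units of that step the columns summed to 948342 to 980641. Whole was taken as within 0.01. The values were therefore read as whole-number TPM over a size factor for each mouse. They are not reads, so no count model was fitted, and depth is not kept in the table.

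Groups were taken from the sample labels, under which each sample is 1 mouse. The 11431 entries with a mean of at least 1 entered the test, made with limma 3.58.1 in R 4.3.3 (eBayes with trend) on log2(value + 1). A single fit held the 4 groups, and two-sided p-values were adjusted by Benjamini-Hochberg within each comparison. All mice were kept, and 0 columns were identical. The scripts were tested on simulated data. The 10 genes, the gene lists and the markers were chosen with earlier results of these data known. The genes named are the 10, the called genes of the wider list (at most the 10 smallest adjusted p per dose), and for each called gene of the 10 the 3 entries closest by r. In the wider list, Pcyt1b, Plpp4, Lpcat4 and Mboat2 were not analysed here and Pla2g16 was read as Plaat3. Relations between genes used Python 3.11.15. As alternatives, the pseudocount was set to 0.1 or 5 and the filter on low values dropped or raised to a mean of 5, beside quantile normalization, median-ratio factors, the compared groups alone, array quality weights, robust eBayes, a Wilcoxon rank-sum test, the replicate number as a block, a log2FC beyond 0.5, and each mouse left out in turn. The fits without the 4 mice least like their groups, and those without single mice for genes outside the 10, were added after the data were seen.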

Additional observations from a re-analysis of the deposited data

How the results depend on the processing

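Over 39 gene-level differences, 1419 refits kept direction and call, 97 changed a call and 12 turned the sign, the cause of which was not tested. The count of the 10 genes called at the low dose was 1, and 0 with a Wilcoxon rank-sum test (1 to 1 without single mice). At the middle dose it was 2, and 1 with no filter, the compared groups alone, the Wilcoxon test or a log2FC beyond 0.5 (1 to 3 without single mice). At the high dose it was 5, and 2 with that log2FC (5 to 5 without single mice). Between the low and the middle dose 3 fell to 1 (no filter, compared groups alone, log2FC) or 0 (array quality weights, Wilcoxon test, without the 4 mice), with 1 to 3 without single mice. Between the low and the high dose 1 fell to 0 (no filter, log2FC) with 0 to 2 without single mice. Between the middle and the high dose 5 fell to 3 (compared groups alone, array quality weights, without the 4 mice), 2 (Wilcoxon test) or 1 (log2FC), with 3 to 6 without single mice, and to 4 with no filter, which ended the call of Lpin2. In the wider list, 2 higher genes at the low dose became 1 (no filter, quantile normalization) and 2 lower became 1 (mean of at least 5), 7 higher at the middle dose became 4 (compared groups alone), 5 lower became 2 (no filter) or 3 (compared groups alone), and 0 lower at the high dose became 2 (quantile normalization). Without single mice the higher genes ranged from 1 to 3, 5 to 10 and 8 to 10 in order of dose and the lower genes from 2 to 2, 2 to 5 and 0 to 1. Signs turned only for differences near 0: Lpin1 at the low dose (-0.0981 to 0.0218 without single mice), Plpp3 at the middle dose (-0.0524 to 0.0157) and Pcyt1a at the middle dose (-0.00188 to 0.0457, and -0.00177 with array quality weights).

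Replicate numbers gave no sign of pairing: over 79 same-numbered pairs the mean correlation of deviations was -0.0025 (-0.359 to 0.243), and 12.7% exceeded 0.1. With the replicate number as a block, the calls between the low and the high dose went from 1 to 0 (Plpp3, adjusted p = 0.0586), those between the middle and the high dose from 5 to 4 (Lpin2, 0.075), the wider list's higher genes at the low dose from 2 to 1 and its lower genes at the middle dose from 5 to 3. Median-ratio factors were 1.0077 to 1.0086 and left the scaling nearly as deposited.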
